A study of Mus musculus with 4 samples.

Results

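Selectins and leukocyte adhesion molecules were examined in 4T1, a mouse mammary carcinoma line with a WT genotype and a cell type labelled epithelial, by RNA sequencing after treatment with recombinant IL-17A (rIL17, 2 libraries) or with PBS (2 libraries). Both groups were the same line in culture, and the sources used here give neither the dose nor the length of treatment. The set of 8 genes comprised Selp, Sele, Selplg, Icam1, Vcam1, F11r, Alcam and Podxl, and 7 of these were among the 21840 genes of the deposited table. Selplg was not analysed here. The set was chosen because Selp and Sele were higher and Icam1 was lower in the rIL17 libraries, so the values of its members in this contrast are given as a description. The fit over all genes included the members, and its calls are listed below, but they cannot serve as a test of the set.

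Selectins are lectins that bind sialylated, fucosylated glycans and let leukocytes tether to and roll on the vessel wall. P-selectin is stored in granules of platelets and endothelial cells, and E-selectin is made by endothelial cells on exposure to inflammatory cytokines. Firm adhesion then follows through the immunoglobulin-type molecules ICAM-1 and VCAM-1, which are ligands of leukocyte integrins. IL-17A, a cytokine made mainly by lymphocytes, signals to epithelial and stromal cells and switches on inflammatory genes.

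Because the selectin genes and Icam1 moved in opposite directions, the 250 bases before the RefSeq start of each (build GRCm38.p6, all on the plus strand) are shown with matches to a form of the NF-kB motif, GGAANNNCC, on either strand in capitals. NF-kB is a family of transcription factors activated by inflammatory cytokines. The Selp stretch is chr1:164115014-164115263, the Sele stretch is chr1:164047984-164048233 and the Icam1 stretch is chr9:21015690-21015939.
Selp: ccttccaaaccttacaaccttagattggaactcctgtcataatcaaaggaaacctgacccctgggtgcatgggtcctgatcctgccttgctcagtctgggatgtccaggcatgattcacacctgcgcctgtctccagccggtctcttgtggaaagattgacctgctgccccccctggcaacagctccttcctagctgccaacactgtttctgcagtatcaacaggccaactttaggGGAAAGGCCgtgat
Sele: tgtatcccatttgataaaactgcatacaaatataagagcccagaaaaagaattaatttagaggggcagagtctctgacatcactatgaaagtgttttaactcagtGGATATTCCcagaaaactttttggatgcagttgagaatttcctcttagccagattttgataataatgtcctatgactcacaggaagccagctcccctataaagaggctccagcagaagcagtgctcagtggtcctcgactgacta
Icam1: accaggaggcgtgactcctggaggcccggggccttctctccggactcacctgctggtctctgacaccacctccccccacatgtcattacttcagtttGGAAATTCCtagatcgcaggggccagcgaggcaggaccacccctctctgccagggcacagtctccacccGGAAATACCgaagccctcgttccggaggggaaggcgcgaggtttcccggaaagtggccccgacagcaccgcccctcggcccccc

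Positions are counted backwards from the RefSeq start, with -1 for the base before it. The Selp stretch held 1 match, GGAAAGGCC at -14 to -6. Sele likewise held 1, GGATATTCC at -145 to -137, where the motif reads on the minus strand. Icam1 held 2, GGAAATTCC at -153 to -145 and GGAAATACC at -84 to -76. Such matches were present in 15.7% of the 32851 promoter stretches of the same length, and a match is a description of letters, not a binding site.

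Other motifs were searched in the same way on both strands. The STAT form TTCNNNGAA was found in Sele at -140 to -132, overlapping its NF-kB match, and in Icam1 at -42 to -34, against 7.02% of all stretches. The C/EBP form TTNNGNAA was found in Selp at -105 to -98 and in Icam1 at -156 to -149, where it overlaps an NF-kB match, against 36.8% of all stretches. The AP-1 form TGANTCA was found in Selp, Sele and F11r, against 6.75%, and TATAAA in Sele alone of these, at -49 to -44, against 12.4%. RefSeq stretches were held for 5 of the 8 genes. Those of F11r and Alcam held no NF-kB match, and Vcam1, Podxl and Selplg were not searched. Outside the set, the stretches of Lcn2 and F5, genes described below as higher in rIL17, also held no NF-kB match. Of the other motifs, Lcn2 held a C/EBP match at -216 to -209, where the motif reads on the minus strand, and F5 held none.

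The deposited values corresponded to 17511450 to 17970104 reads per library, inferred from the step between values and not from deposited counts. As a check on the treatment, the IL-17 target gene Lcn2 had 28833 and 28096 normalized counts in rIL17, against 8448 and 8498 in PBS, and Il6 had 81.4 and 71.2, against 8.83 and 8.95 in PBS. Normalized counts here are reads scaled by 1 factor per library, as deposited. Separate cultures are not stated for the libraries of a group. The p-values therefore measure only how these libraries vary, and that variation may be technical. Genes were tested with limma on log2(normalized count + 1) and called at a Benjamini-Hochberg adjusted p below 0.05. An exact permutation test on 1 gene cannot go below 0.333 (two-sided) with 2 libraries against 2.

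Selp, which encodes P-selectin, had 3511 and 3497 normalized counts in the rIL17 libraries, against 1517 and 1363 in the PBS libraries. Both rIL17 libraries lay above both PBS libraries, and the rIL17 pair differed by less than its counting error. The mean was 3504 ± 10.1 normalized counts in rIL17 and 1440 ± 109 in PBS (SD, n = 2 each), a ratio of 2.43 and a log2 fold change of 1.28. Sele, which encodes E-selectin, had 770.0 and 706 normalized counts in rIL17, against 397 and 407 in PBS. The groups again did not overlap, with a ratio of 1.84 and a log2 fold change of 0.87. In levels per exon length (TPM), Selp stood above Sele in each library. The ratio of their TPM was 3.01 and 3.27 in rIL17 and 2.52 and 2.21 in PBS.

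Icam1, which encodes a ligand of the leukocyte integrins LFA-1 and Mac-1, had 301 and 265 normalized counts in rIL17, against 626 and 651 in PBS. The groups did not overlap, with rIL17 2.26-fold lower by the means (283 ± 25.3 in rIL17 and 639 ± 17.9 in PBS, SD, n = 2 each), with a log2 fold change of -1.18. Vcam1, which encodes a ligand of the integrin VLA-4, had 4168 and 3809 normalized counts in rIL17, against 4537 and 4493 in PBS. Its rIL17 libraries also lay below the PBS libraries, by a smaller margin, with a ratio of 0.883 and a log2 fold change of -0.18. The TPM of Vcam1 was 6.82 and 7.07 times that of Icam1 in the rIL17 libraries, and 3.56 and 3.39 times in the PBS libraries.

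Alcam, an immunoglobulin-type molecule that binds CD6 on lymphocytes and itself on other cells, had 907 and 747 normalized counts in rIL17, against 497 and 433 in PBS. The groups did not overlap, although the libraries within each group also stood apart. The ratio was 1.78 and the log2 fold change 0.83. F11r, which encodes the tight-junction molecule JAM-A, had 1554 and 1619 normalized counts in rIL17, against 1578 and 1683.5 in PBS, and its groups overlapped (log2 fold change -0.039). Podxl encodes podocalyxin, a sialomucin that can carry selectin ligands. It had 4437 and 4419 normalized counts in rIL17, against 4275 and 4341 in PBS, groups that did not overlap but differed by a ratio of 1.03 (log2 fold change 0.040). On mm10, Alcam lies on chromosome 16 (52248996 to 52454074, minus strand), F11r on chromosome 1 (171437535 to 171464603, plus strand), Podxl on chromosome 6 (31519488 to 31563981, minus strand) and Vcam1 on chromosome 3 (116109949 to 116129688, minus strand).

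**Figure D1:**
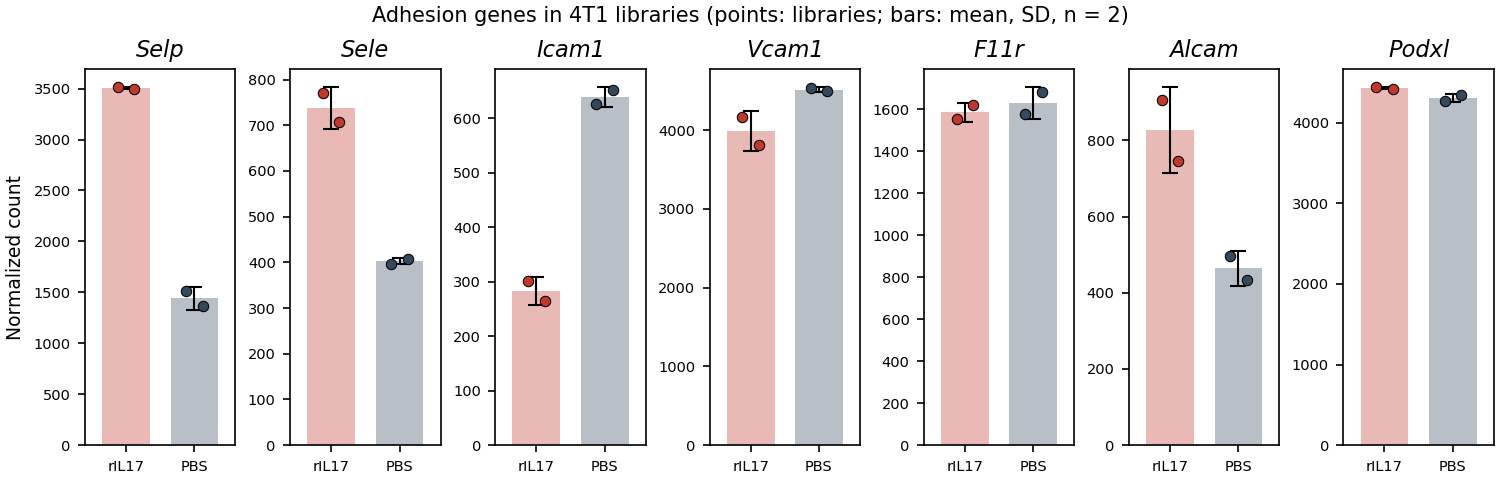
Normalized counts of the 7 genes in each library, on linear axes that start at 0, with rIL17 left of PBS in each panel; points are libraries, bars are means and error bars are SD (n = 2 each). Selp, Sele and Alcam stand higher and Icam1 lower in rIL17, while F11r overlaps between the groups.

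Over the 7 genes, 4 had both rIL17 libraries above both PBS libraries and 2 had both below, where 25.4% and 20.0% of all 20677 tested genes did so, 45.4% in either direction. The fit across all genes called Selp, Sele and Alcam higher and Icam1 lower, where 1.00% of all tested genes were called higher and 0.295% lower. With a stricter filter on low counts it called these same 4, against 0.853% of genes called higher and 0.267% lower (1.12% in either direction). With limma-voom it again called the 4, against 1.45% higher and 0.542% lower (1.99% in either direction). With 1 library left out under the usual filter, or with ordinary shrinkage (0.00% of genes called), it called 0 of the 7. Under the stricter filter it called the 4 without PBS replicate 1, where 19.0% of all genes were called, and without PBS replicate 2, where 3.79% were called. Without either rIL17 library it called 0 of the 7 and 0.00% of all genes. Alcam was not called with a pseudocount of 0.1 (0.155% of genes called) or with ordinary shrinkage and the stricter filter (0.734%), settings that called Selp, Sele and Icam1. Nothing is read from these counts, since the genes were chosen on this contrast. By the size of the log2 fold change without its sign, Selp exceeded 94.3% of tested genes, Icam1 92.8%, Sele 85.9% and Alcam 85.1%, while Vcam1 exceeded 44.1%, Podxl 13.3% and F11r 13.1%.

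Levels can be compared between the genes only per length, for which TPM were computed from the normalized counts and the exon length of each gene. In the rIL17 libraries Podxl (140 ± 1.74 TPM) and Selp (138 ± 1.72) came highest, followed by F11r (103 ± 4.56), Vcam1 (77.8 ± 3.76), Sele (43.9 ± 2.02), Alcam (20.1 ± 2.44) and Icam1 (11.2 ± 0.833; SD, n = 2). In the PBS libraries the order was Podxl (137 ± 0.686 TPM), F11r (107 ± 3.23), Vcam1 (89.1 ± 2.02), Selp (57.1 ± 5.21), Icam1 (25.6 ± 0.315), Sele (24.2 ± 0.0159) and Alcam (11.4 ± 1.31; SD, n = 2). Selp thus stood below Vcam1 in PBS and level with Podxl in rIL17, where the values of both genes overlapped (136 and 139 TPM for Selp, 138.5 and 141 for Podxl). Every other pair of neighbours in either order had values that did not overlap. Of these, Icam1 and Sele lay closest in PBS, at 25.4 and 25.9 TPM against 24.1 and 24.2. In rIL17 they stood at 11.8 and 10.6 TPM against 45.3 and 42.5.

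**Figure D2:**
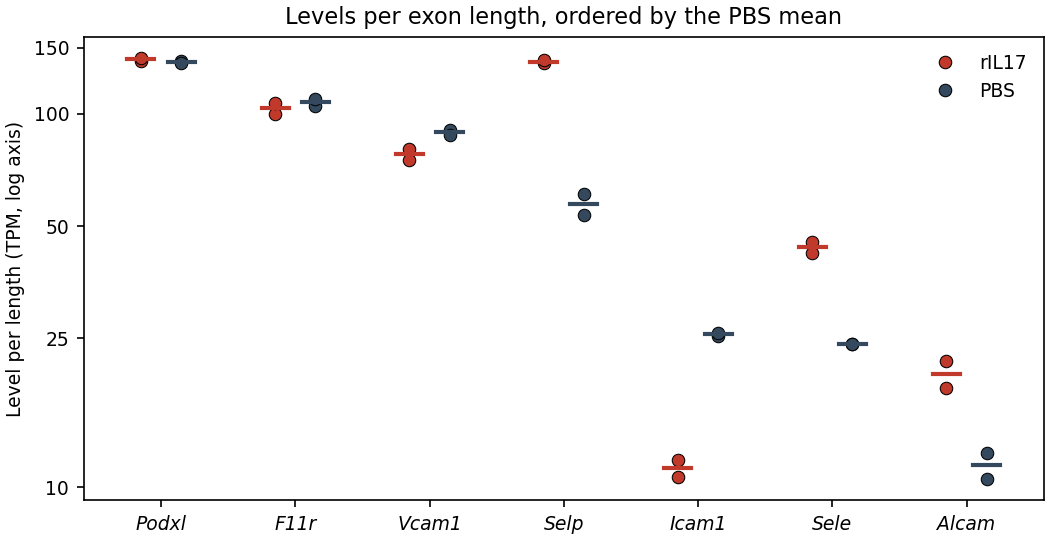
Levels per exon length (TPM, log axis) of the 7 genes in each library, ordered by the PBS mean, with rIL17 left of PBS for each gene; points are libraries and lines are means. Selp reaches the level of Podxl in rIL17 (138 and 140 TPM), and Icam1 and Sele, close together in PBS, stand apart in rIL17.

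Replicates of a group were compared with each other in the same libraries that the choice of genes used, so their agreement is a description too. In 4 of the 14 pairs of replicates the ratio of replicate 2 to replicate 1 had a 95% exact binomial interval that left out 1, an interval that covers counting error only and takes the inferred reads as counts. These were Alcam in rIL17 (ratio 0.824, interval 0.747 to 0.909) and in PBS (0.870, 0.763 to 0.990), Vcam1 in rIL17 (0.914, 0.874 to 0.955) and Selp in PBS (0.899, 0.835 to 0.967). Selp in rIL17 had a ratio of 0.996 (0.95 to 1.04). Over the 13482 genes that passed the stricter filter, replicates also differed by more than counting error. The chi-square per gene on inferred reads was 4.00 between the rIL17 libraries and 15.6 between the PBS libraries. Counting error alone gives about 1. The share of all genes with such an interval was not computed, so the 4 pairs are not read as particular to these genes.

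How the 4 libraries related to one another bears on several of these values. On the first principal component (68.8% of the variance of 13482 genes) the rIL17 libraries lay at 27.3 and 21.1 and the PBS libraries at -7.5 and -40.8, so PBS replicate 2 stood apart. For the 812 genes whose transcripts had under 40% GC, the median log2 difference was 0.58 for rIL17 minus PBS. It was -0.47 for PBS replicate 2 minus PBS replicate 1, and -0.15 for rIL17 replicate 2 minus rIL17 replicate 1. Transcript GC content was 51.0% for Selp, 47.5% for Sele, 55.4% for Icam1, 44.0% for Alcam and 40.1% for Vcam1. For Podxl it was 52.0% and for F11r 50.1%. The values without PBS replicate 2 and with a correction for GC content stand here beside the others.

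Without PBS replicate 2, the log2 fold change was 1.21 for Selp, 0.89 for Sele, -1.15 for Icam1, 0.73 for Alcam, -0.19 for Vcam1, 0.051 for Podxl and 0.0077 for F11r, whose sign turned. With each library's values corrected for GC content, Selp had 1.31, Sele 0.84, Icam1 -1.13 and Alcam 0.67. The value of Vcam1 moved most, to -0.60 from the uncorrected -0.18. Podxl had 0.074 with the correction, and -0.0098 with upper-quartile scaling, where its sign turned.

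**Figure D3:**
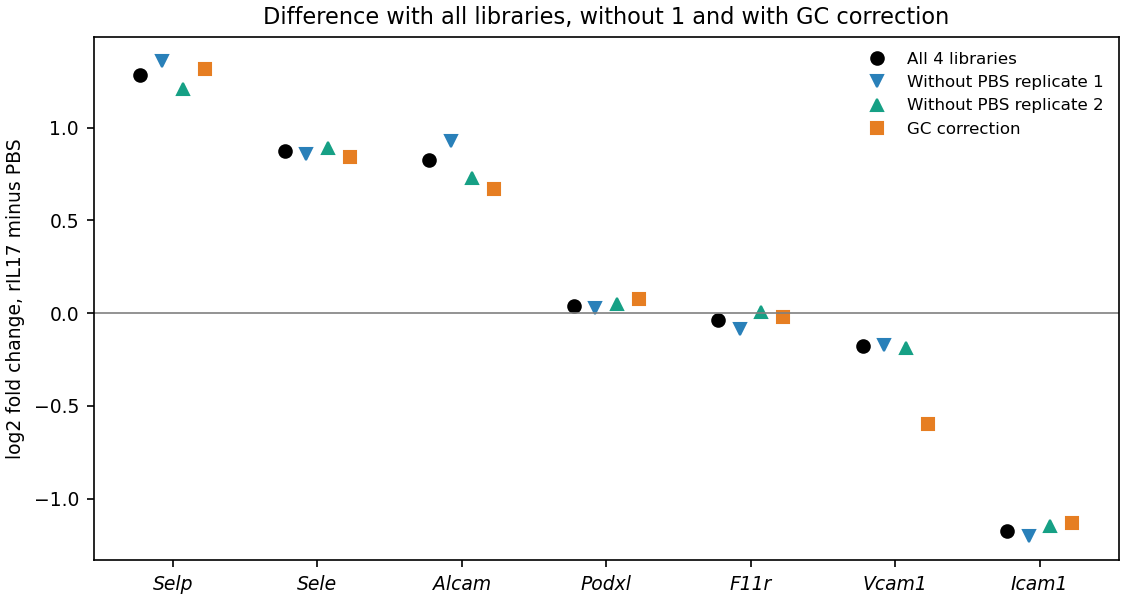
Log2 fold change (rIL17 minus PBS) of the 7 genes with all 4 libraries, without each PBS library and with GC correction; each symbol is 1 setting and carries no error bar. Selp, Sele, Alcam and Icam1 keep their side of 0 in the 4 settings, which leaving out 1 library cannot change where groups do not overlap. Vcam1 moves to -0.60 with the correction.

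Selp and Sele lie in 1 cluster on chromosome 1 (mm10, plus strand), with Sele at 164048234 to 164057677 and Selp at 164115264 to 164150026. F5, the gene of coagulation factor V, starts 1.8 kb after the end of Selp. F5 had 2059.8 and 2146 normalized counts in rIL17, against 1353 and 1157.5 in PBS, and rose by 0.75 on the log2 scale (SE 0.09; limma adjusted p = 0.00387). It had a log2 fold change of 0.64 without PBS replicate 2 and 0.68 with GC correction, and 14 of 22 alternatives called it, with limma adjusted p from 5.776e-06 to 0.670. Under the usual filter, leaving out any 1 library ended the call, as it did for every gene called with all 4 libraries.

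Of genes that reach within 250 kb of the Selp start, a window chosen after the values were seen, 8 other protein-coding ones had log2 fold changes from -0.10 for Mettl18 to 0.22 for BC055324, and 0 passed the test. The TPM of Selp was 2.87 and 2.74 times that of F5 in rIL17, and 1.89 and 1.98 times in PBS.

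**Figure D4:**
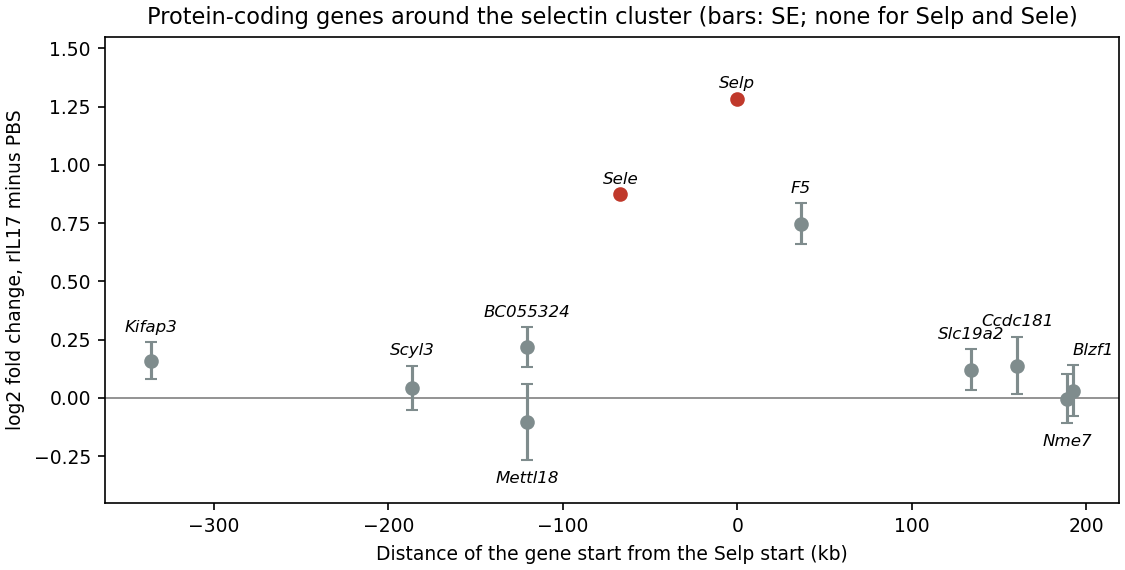
Log2 fold change (rIL17 minus PBS) of the protein-coding genes described against the distance of their start from the Selp start, in kb; red points are Selp and Sele, without error bars, and grey points are other genes with SE. F5 (0.75) lies beside Selp (1.28) and Sele (0.87), and the genes further out lie between -0.10 and 0.22.

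Icam1 lies on chromosome 9 (mm10, 21015985 to 21028817, plus strand) beside Icam4, which was not analysed here, and Icam5, an adhesion molecule of neurons. Icam5 had 22.1 and 14.0 normalized counts in rIL17, against 37.3 and 39.8 in PBS. These groups did not overlap, and the difference did not pass the test (log2 fold change -1.08, SE 0.34, limma adjusted p = 0.206). Gene models on the opposite strand overlap exons of Icam1 (Gm47079, 511 bases), Selp (Gm16548, 438 bases, and Gm16587, 186 bases) and Vcam1 (Gm43109, 61 bases). Their counts were low, at most 10.0 normalized counts in rIL17 for Gm16548 and at most 6.87 in PBS for Gm16587. Gm16548 had 6.03 and 10.0 in rIL17, against 0.981 and 0.994 in PBS. Gm47079 had 1.01 and 1.00 in rIL17, against 2.94 and 2.98 in PBS. The groups of Gm16587 and Gm43109 overlapped, and none of these gene models passed the test. The sources used here do not say whether the counting used strand, and without strand, reads of overlapping genes cannot be told apart.

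By the distance between centred log2 profiles over the 4 libraries, among 13481 other genes, those most like Selp were Zfp119a (distance 0.154), Lipn (0.156) and Hp (0.164), the gene of haptoglobin. The profiles were not corrected for GC content. With that correction the log2 fold change was 0.79 for Zfp119a, 1.26 for Lipn and 1.28 for Hp, against 1.38, 1.41 and 1.23 without it, and 1.31 for Selp. Those most like Icam1 were Cd74 (0.094), the MHC class II invariant chain, Gm26542 (0.096) and Gm32802 (0.132). Those most like Sele were Uox (0.019), 4930431P22Rik (0.020) and 1200007C13Rik (0.022). All 9 of these genes had at most 167 normalized counts in any library, so their profiles carry more counting error than that of Selp.

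The other genes of selectin and integrin adhesion were read from 5 lists written with earlier results known. Over all tested genes limma called 268 (207 higher and 61 lower, 1.30%), and of the 60 tested genes of the lists it called 2, 1 in each direction. The median log2 fold change was 0.013 over the 60 genes and 0.014 over all genes. With GC correction the calls over all genes were 261 higher and 226 lower. Cxadr, which encodes the coxsackievirus and adenovirus receptor of tight junctions, had 2769 and 2675 normalized counts in rIL17, against 1885 and 1548 in PBS. It rose by 0.67 on the log2 scale (SE 0.09, limma adjusted p = 0.009005), with 0.53 without PBS replicate 2 and 0.39 with GC correction. Lgals3bp, a secreted glycoprotein that can carry E-selectin ligands in human tumor cells, had 3016 and 3273.5 normalized counts in rIL17, against 3962 and 4051 in PBS. It fell by 0.35 (SE 0.07, limma adjusted p = 0.0382). Of 22 alternatives 13 called Cxadr and 10 called Lgals3bp. With all 4 libraries, Lgals3bp lost its call under the stricter filter (limma adjusted p = 0.0606), a pseudocount of 0.1 and ordinary shrinkage. Cxadr lost its call under the last 2 of these. Under the usual filter neither was called with any 1 library left out, which held for every tested gene.

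Among glycoproteins that can carry selectin ligands, 11 were tested, 6 higher and 5 lower, and Lgals3bp was called. Cd44 had a log2 fold change of 0.19, with 0.061 after GC correction and 0.11 without PBS replicate 2. Cd24a, a ligand of P-selectin, had 0.54 and was not called (limma adjusted p = 0.322). It had 0.31 without PBS replicate 2 and 0.33 with GC correction, where it was called (limma adjusted p = 0.0366), and 4 of 22 alternatives called it. Muc1 had 1.09 at 13.1 and 14.0 normalized counts in rIL17, against 6.87 and 4.97 in PBS. Enzymes that build the glycans gave 17 tested genes, 7 higher and 10 lower, with 0 called. The fucosyltransferase gene Fut7 had 22.1 and 20.1 normalized counts in rIL17, against 12.8 and 6.96 in PBS (log2 fold change 1.08, SE 0.43, limma adjusted p = 0.347), and its value was 0.68 without PBS replicate 2. Chst2, a sulfotransferase gene, had -0.26, the sialyltransferase gene St3gal3 -0.29 and the tyrosine sulfotransferase gene Tpst2 -0.21, and 0 of these 3 passed. With 1 library left out, St3gal3 ranged from -0.40 to -0.19 and Tpst2 from -0.31 to -0.11.

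Leukocyte integrin genes had 3 tested members, and 0 were called. Itgb1 had a log2 fold change of 0.059, Itgb2 of 0.014 and Itgb7 of 0.013, signs that turned under some settings, among them Itgb2 and Itgb7 with upper-quartile scaling. Itgb2, the shared chain of the ICAM-1 receptors, had 3933 and 3950.5 normalized counts in rIL17, against 3751 and 4062 in PBS. Its partner Itgal had at most 1.00 normalized count in rIL17 and 0.994 in PBS. Of other adhesion molecules 21 were tested, 13 higher and 8 lower, and Cxadr was the only one called. Cd47, which signals to the macrophage receptor SIRPA, had 0.39, with 0.13 after GC correction and 0.21 without PBS replicate 2. Nectin3 had 0.36, and 0.23 without PBS replicate 2. Partners of podocalyxin and the cell cortex had 8 tested genes, 3 higher and 5 lower, with 0 called. Ezr, which encodes the cortical linker ezrin, had -0.080, Msn 0.053, Tjp1 0.17 and Rdx 0.31. Without PBS replicate 2 these were -0.034, 0.0058, 0.095 and 0.076.

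**Figure D5:**
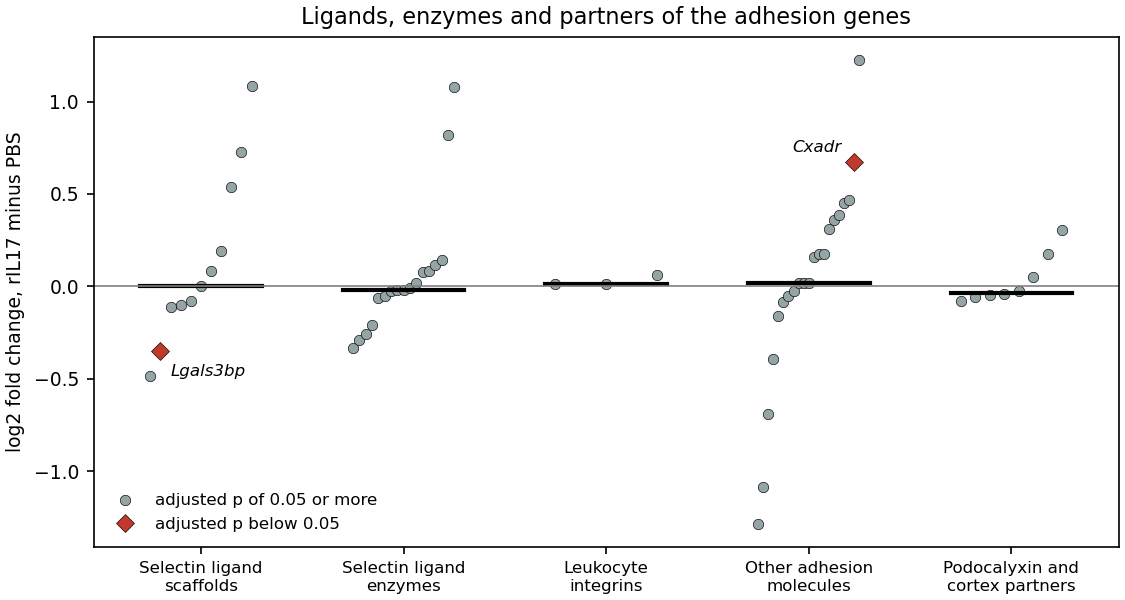
Log2 fold change (rIL17 minus PBS) of each tested gene of the 5 lists; points are genes in order of their value, black lines are list medians and red diamonds are genes at a limma adjusted p below 0.05. Cxadr (0.67) and Lgals3bp (-0.35) are called, and the medians lie near 0.

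Selectins are known from endothelial cells and platelets, so markers of these and other cells were set beside them. Of 12 endothelial markers 8 were analysed, and Cdh5, the defining cadherin, had 2.01 and 0 normalized counts in rIL17, against 0.981 and 0 in PBS. Pecam1, Tie1, Tek, Cldn5 and Vwf had at most 7.02 normalized counts in rIL17 and 6.96 in PBS. Of the other two, Egfl7 had 145 and 170.5 normalized counts in rIL17, against 178 and 177 in PBS, and Flt1 made up most of the summed level of 2383 and 2518 in rIL17 and 2288 and 2079 in PBS. The platelet markers summed to 76.4 and 97.3 normalized counts in rIL17, against 90.3 and 85.5 in PBS, mostly from Itga2b. Pf4, a defining platelet gene, had 4.02 and 0 in rIL17, against 3.92 and 4.97 in PBS. Of 10 leukocyte markers 5 were analysed, summing to 124 and 134 normalized counts in rIL17, against 121 and 124 in PBS. Most of this was Cd68, a lysosomal protein gene of macrophages, with 108 and 127 in rIL17, against 115 and 118 in PBS. Lyz2 had 11.1 and 2.01 in rIL17, against 2.94 and 0.994 in PBS. The defining leukocyte gene Ptprc had 3.02 and 2.01 in rIL17, against 0 in both PBS libraries, where a count of 0 allows up to 3 reads. Leukocyte integrin genes, outside this marker list, differed. Itgb2 had 3933 and 3950.5 in rIL17, against 3751 and 4062 in PBS. Itgb7 had 1811.5 and 1760 in rIL17, against 1675 and 1870.5 in PBS, while Itgal was near 0.

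The epithelial keratin genes Krt7, Krt8, Krt18 and Krt19 were abundant. Krt14 was not, with 1.01 and 1.00 normalized counts in rIL17, against 5.89 and 4.97 in PBS. Cldn4, another epithelial marker, was also low, with 19.6 and 15.9 in PBS and fewer in both rIL17 libraries. Esrp1, also listed, was not analysed here. Krt8 had 25498 and 26467 normalized counts in rIL17, against 29749 and 32665 in PBS, and Cdh1, the gene of E-cadherin, had 144 and 139 in rIL17, against 208 and 180.0 in PBS. Of 7 tested epithelial markers 1 was higher and 6 lower, and Krt18 was called lower (log2 fold change -0.27, SE 0.05, limma adjusted p = 0.0401). Of 22 alternatives 10 called Krt18. It lost its call with all 4 libraries under the stricter filter (limma adjusted p = 0.0780), a pseudocount of 0.1 and ordinary shrinkage. With any 1 library left out under the usual filter Krt18 was not called either, which held for every tested gene. The fibroblast markers summed to 2971 and 2967 normalized counts in rIL17, against 2444 and 2554 in PBS, most of it Pdgfra, while Col1a2 had at most 2.01 in rIL17 and 1.99 in PBS. Of 5 tested fibroblast markers 2 were higher and 3 lower, with 0 called. Dcn had 62.3 and 46.1 in rIL17, against 26.5 and 17.9 in PBS. Col1a1 had 29.2 and 30.1 in rIL17, against 51.0 and 37.8 in PBS, and Pdgfrb 24.1 and 26.1, against 36.3 and 33.8. The part of these marker levels in the adhesion values was not tested. In RNA from whole cultures, fewer cells that make a transcript and less of it per cell cannot be told apart.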

How the data were processed

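RNA-seq libraries of 4T1 cells (2 rIL17, 2 PBS) were analysed from the deposited table of 21840 genes. Per the labels' protocols, total RNA went into a directional library kit. CASAVA, HISAT2 2.0.5, featureCounts 1.5.0-p3 and mm10 are named in the submitters' processing notes, and the sources used here do not name the annotation, strand setting or scaling tool. The deposited values are a normalized signal: in each library 100.0% lay within 0.001 of a whole multiple of 1 step (1.0053 and 1.0029 in rIL17, 0.9811 and 0.9944 in PBS), and the text calls these values normalized counts. Dividing by the step gave inferred reads, used only for depth, binomial intervals and the chi-square between replicates. As the steps lie close to 1, these reads are an inference and were not used for count models.

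The filter kept genes averaging 1 normalized count or more in either group. The test was limma 3.58.1 in R 4.3.3, applied to log2(normalized count + 1), a scale that understates changes of low genes, with treatment as the only term, a mean-variance trend and robust shrinkage. Ordinary shrinkage did not recover planted changes in counts simulated around the PBS means, with the same extra spread for all genes. Robust shrinkage was therefore chosen, after seeing the data. The simulation lacked the uneven spread and the GC-linked shift of the real libraries, so it cannot show which shrinkage suits them. Symbols matched 21833 rows. Positions, exon lengths and transcript GC content came from GENCODE M21 (mm10), promoters from RefSeq (GRCm38.p6). The stricter filter asked for 10 normalized counts in both libraries of 1 group. GC correction subtracted a loess curve (span 0.3) on transcript GC content from each library's deviation from the gene mean.

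The members, lists and tests were chosen with earlier results of these data known. Named besides the members are the 4 genes of smallest p in each list and any called, the neighbours F5, Icam4 and Icam5, the 3 genes nearest in profile to Selp, Sele and Icam1, Lcn2 and Il6. Other locus genes, Itgal, overlapping antisense genes and single markers are named outside that rule, after their values were seen. The result of 1 neighbouring gene is not reported here.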

Additional observations from a re-analysis of the deposited data

How the results depend on the processing

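Of the 7 members, Selp, Sele, Alcam, Icam1 and Vcam1 kept their direction under 22 alternatives, with log2 fold changes of 1.21 to 1.36, 0.81 to 0.94, 0.66 to 0.97, -1.27 to -1.08 and -0.60 to -0.12. Changing only the filter, the shrinkage or the block leaves these values the same by construction. Leaving out 1 library cannot turn the sign where groups do not overlap, as in these genes. The kept direction was thus largely fixed in advance and is no sign of robustness. The sign of F11r turned under 2 alternatives and that of Podxl under 1. The count of genes called over all genes, 268, was 151 with the stricter filter, 432 with total-count scaling, 32 with a pseudocount of 0.1, 411 with limma-voom, 487 with GC correction and 414 with GC correction and the stricter filter. With GC correction 53.6% of calls were higher in rIL17, against 77.2% without it. Ordinary shrinkage gave 0 calls (2642 genes at an unadjusted p below 0.05), and 99 with the stricter filter. Without 1 library the count was 0 in each case, and 0 to 2566 under the stricter filter, where it was 0 without either rIL17 library. A lone library is then assumed to vary like the libraries of the other group. The 2 calls in the adhesion lists became 1 with the stricter filter (Lgals3bp was lost), 3 with GC correction (Cd24a was added), and 0 with a pseudocount of 0.1, ordinary shrinkage (with either filter) or 1 library left out, or 0 to 13 under the stricter filter. The cause of these changes was not tested.

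With the replicate number as a block, 183 of 20677 genes were called over all genes, and 1267 of 13482 with the stricter filter. In the lists 1 of 60 was called with the block (Lgals3bp was lost). With the block and the stricter filter 7 of 51 were called, and with the block and GC correction 1 of 60. The labels do not say that a number marks a shared culture, and the deviations of libraries with the same number correlated at 0.121, so the numbers are not taken to pair the libraries. Krt18 was not called with the block, alone or with GC correction. Vcam1 was called with both together, where 283 of 20677 genes were called. Nothing is read from this call, since the members were chosen on this contrast. Among single genes named, Itgb1 ranged from -0.089 (without PBS replicate 2) to 0.21 (without PBS replicate 1) with 1 library left out, was -0.011 without rIL17 replicate 1, and turned to -0.058 with GC correction, alone or with the block, and -0.063 with GC correction and the stricter filter. Itgb2 ranged from -0.043 (without PBS replicate 1) to 0.072 (without PBS replicate 2), and turned to -0.036 with upper-quartile scaling and -0.016 with total-count scaling or limma-voom. Itgb7 ranged from -0.067 (without PBS replicate 1) to 0.092 (without PBS replicate 2), was -0.0080 without rIL17 replicate 1, and turned to -0.037 with upper-quartile scaling and -0.017 with total-count scaling or limma-voom. These values were the same with the stricter filter for 1 library left out and for limma-voom. The planned count-model tests on inferred reads were not run, because the deposited values are normalized and their steps lie too close to 1 to take those reads as counts. Depth limits Fut7, Muc1 and Icam5, each below 100 normalized counts in each library.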
